A study of Mus musculus with 3 samples.

Results

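The data are Twist1 binding regions (ChIP-seq peaks) that lie in gene deserts, the long stretches of the mouse genome between neighbouring genes. A peak was counted as a desert peak when it was on an assembled chromosome and each gene distance printed for it in its peak list was above 500000 bp. This gave 6367 desert peaks among 65576 peaks on assembled chromosomes and 67468 listed peaks. They were 935 of 10653 peaks in endocardial cushions (ECCs), 4639 of 47664 in forelimb buds and 793 of 7259 in peripheral nerve sheath tumor (PNST) cells.

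Twist1 occupancy was compared between 3 sources of mouse chromatin that share the FVB/N strain and the Twist1 antibody (Sigma, T6451). ECCs were dissected from the atrioventricular canal of wild-type embryos at E12.5, where they form the precursors of the heart valves. Limb buds were the forelimb buds of wild-type embryos at E10.5. PNST cells are a cultured mouse tumor cell line. Tissue from several litters, or cells from more than 1 plate, was pooled into 1 sample for each source, so no value below has a replicate and no test over samples could be run. Intervals are 95% intervals for counting error only (Wilson for a share, Newcombe for a difference of shares), and peaks of 1 sample are not replicates. The lists hold no expression values, so the sources could not be checked against marker genes.

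Gene deserts are poor in coding sequence, and some of them hold enhancers that act on a gene far away, often a developmental transcription factor. Others border large genes for cell adhesion and axon guidance. Twist1 is a basic helix-loop-helix factor that binds the E-box (CANNTG) as a dimer and acts in mesenchyme of the valves and the limb.

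The libraries differed in depth. In the headers, the totals were 5702220 tags for ECCs, 23086861 for forelimb buds and 16760421 for PNST cells, of which 3149934, 14893391 and 11823220 remained after duplicate tags were removed. The deposited limb bud list has more peaks and more tags than the methods and results of the study describe for limb buds, so it may come from another run, and every limb bud value below rests on it. The study's read numbers for ECCs and PNST cells are also below the header totals. Its peak numbers for these sources equal the placed peaks counted here. The headers named no control file, while genomic DNA of the FVB/N strain is given as control in the methods. Tags are reads placed in a peak, and fold enrichment is their ratio to the local background. The part of depth and of the control in the results below was not tested.

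The sequences below show what the desert peaks were made of, on the plus strand of mm9. The first is 1 unit of the tandem repeat under the desert peaks with the most tags, on chromosome 2 between Lrrc4c and B230118H07Rik. It is shown because these peaks held 35.9% of the tags in ECC desert peaks and 36.3% in PNST desert peaks, against 7.04% for limb buds.
Lrrc4c-B230118H07Rik, chr2:98506789-98507022: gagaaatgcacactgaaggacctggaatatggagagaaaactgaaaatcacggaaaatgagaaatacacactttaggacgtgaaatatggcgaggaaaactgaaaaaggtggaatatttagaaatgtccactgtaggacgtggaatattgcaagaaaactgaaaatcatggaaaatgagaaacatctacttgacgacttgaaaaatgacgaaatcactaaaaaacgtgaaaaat

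The following sequence, on chromosome 12, is shown because each of its 32-base words also occurs in the mitochondrial genome.
1700019M22Rik-Galc, chr12:98299644-98299879: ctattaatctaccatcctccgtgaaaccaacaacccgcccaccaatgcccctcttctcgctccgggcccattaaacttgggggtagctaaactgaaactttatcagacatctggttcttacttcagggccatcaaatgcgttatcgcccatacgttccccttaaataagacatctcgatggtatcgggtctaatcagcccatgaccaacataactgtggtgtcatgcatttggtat

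The next 3 are peaks of PNST cells on different chromosomes that were also found in ECCs and limb buds. They share the stretch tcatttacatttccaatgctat, which lies beside a C-rich run. The run is the same in Bc1-Odz4 and Sel1l-Flrt2 and differs in Nr2f1-Arrdc3.
Bc1-Odz4, chr7:101990824-101990923: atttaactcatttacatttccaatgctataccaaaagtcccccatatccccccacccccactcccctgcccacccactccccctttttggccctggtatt
Sel1l-Flrt2, chr12:93632598-93632697: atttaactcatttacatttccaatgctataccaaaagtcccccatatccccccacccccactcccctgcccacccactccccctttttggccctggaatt
Nr2f1-Arrdc3, chr13:78927609-78927689: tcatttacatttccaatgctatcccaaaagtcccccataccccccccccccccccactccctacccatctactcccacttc

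The last 3 are desert peaks found in 1 source alone (the first in ECCs, the second in limb buds, the third in PNST cells). They are mostly of sequence that occurs once on the placed chromosomes, with an E-box near the summit. Capitals mark each E-box.
1700015G11Rik-Luzp2, chr7:59836509-59836746: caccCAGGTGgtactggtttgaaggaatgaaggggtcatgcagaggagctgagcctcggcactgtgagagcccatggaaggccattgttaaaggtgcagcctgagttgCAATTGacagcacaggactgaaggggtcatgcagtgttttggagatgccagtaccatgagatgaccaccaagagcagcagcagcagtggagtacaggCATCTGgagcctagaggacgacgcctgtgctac
Gm12070-Ccdc85a, chr11:27331190-27331333: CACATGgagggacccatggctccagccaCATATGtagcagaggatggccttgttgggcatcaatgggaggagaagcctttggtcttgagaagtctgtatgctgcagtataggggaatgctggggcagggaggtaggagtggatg
Gm5347-Fat1, chr8:45500275-45500429: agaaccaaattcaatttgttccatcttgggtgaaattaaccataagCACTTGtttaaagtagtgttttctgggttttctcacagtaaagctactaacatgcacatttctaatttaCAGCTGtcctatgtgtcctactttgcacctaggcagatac

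Desert peaks made up 8.78% of the placed ECC peaks (8.25 to 9.33%), 9.73% of the limb bud peaks (9.47 to 10.0%) and 10.9% of the PNST peaks (10.2 to 11.7%). Sequence that far from the genes of the lists measured 219.3 Mb, which is 8.57% of the placed chromosomes. Over the full lists, the share of ECC peaks was therefore near the share of sequence, and the shares of limb bud and PNST peaks were above it. This changed among peaks that hold a 32-base word found once on the placed chromosomes. Their shares were 7.42% in ECCs (6.68 to 8.24%), 7.95% in limb buds (7.49 to 8.43%) and 9.49% in PNST cells (8.40 to 10.7%). The ECC and limb bud shares were then below the share of sequence, and the PNST interval included it. The share of sequence was not limited to such words.

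Per Mb of desert, there were 4.26 ECC peaks, against 4.15 ECC peaks per Mb of the other sequence. In limb buds the densities were 21.1 and 18.4 peaks per Mb, and in PNST cells 3.62 and 2.76. The ratio of the densities was 1.03 in ECCs, 1.15 in forelimb buds and 1.31 in PNST cells. The share of desert peaks was higher in PNST cells than in ECCs by 2.15 percentage points (1.26 to 3.05) and higher than in limb buds by 1.19 points (0.444 to 1.98). It was higher in limb buds than in ECCs by 0.956 points (0.344 to 1.54). The PNST list had the highest share at a limit of 250 Kb and at a limit of 1 Mb as well, with 22.5% and 3.24%. At 1 Mb the PNST interval (2.85 to 3.67%) included the limb bud share, 2.998%. Among peaks with a p-value of 1e-10 or smaller the PNST share was no longer the highest, with 7.28% in ECCs, 7.77% in forelimb buds and 7.39% in PNST cells.

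**Figure D1:**
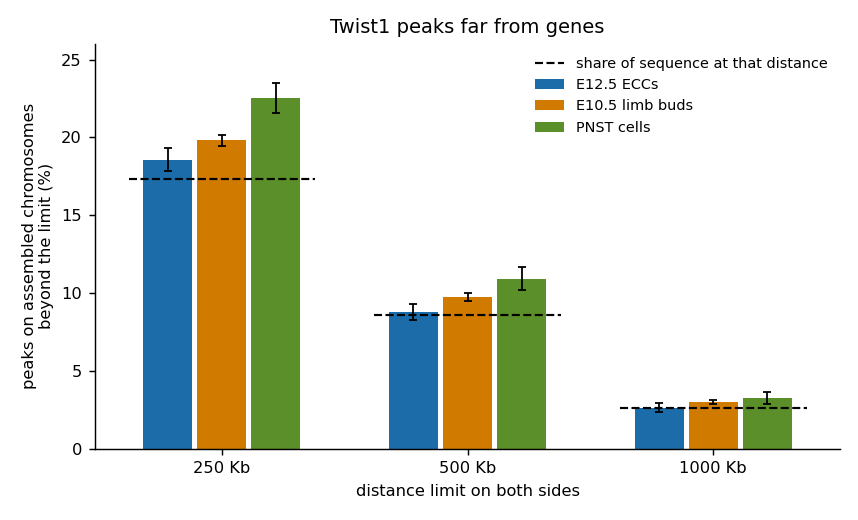
Share of placed peaks (%, y axis) beyond a distance limit of 250, 500 or 1000 Kb on both sides (x axis), with 95% Wilson intervals. Dashed lines give the share of placed sequence beyond the same limit, which was 17.3%, 8.57% and 2.60%, and the PNST bar is the highest at each limit.

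The distance from a desert peak to its nearest listed gene had a median of 800420 bp in ECCs, 786047 bp in forelimb buds and 780514 bp in PNST cells. More than 1 Mb separated 280 peaks of ECCs, 1429 of limb buds and 235 of PNST cells from any listed gene, which is 29.95%, 30.8% and 29.6% of the desert peaks. These shares were close to each other. The ECC and limb bud peaks farthest from a gene both lay between Odz3, a teneurin adhesion receptor, and Aga, a lysosomal enzyme, at 2114749 and 2385123 bp. The PNST peak farthest from a gene lay between Olfm4 and the protocadherin Pcdh17, at 2137929 bp.

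The limit itself cut through a continuous range of distances. The desert peaks just inside it were 500089 bp from a gene in ECCs, 500051 bp in forelimb buds and 500178 bp in PNST cells. The peaks just outside it were at 499884, 499990 and 499333 bp.

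Most desert peaks were outside every gene of GENCODE vM1, a larger annotation than that of the lists. These were 892 of 935 in ECCs (95.4%), 4490 of 4639 in limb buds (96.8%) and 770 of 793 in PNST cells (97.1%). The rest touched a gene of that annotation, and 19 ECC, 58 limb bud and 7 PNST peaks touched a protein-coding gene. Ptprd, a receptor phosphatase of the synapse, held 2, 12 and 1 of them. The predicted gene Gm7995 held 6 ECC and 8 forelimb bud peaks and no PNST peak. Immunoglobulin variable segments held 8 ECC and 20 limb bud desert peaks and no PNST desert peak.

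Desert peaks were found on every chromosome but Y, which had 0.00406 Mb of desert. Chromosome 12 had the highest share of its peaks in deserts, with 17.2% in ECCs, 19.4% in forelimb buds and 18.1% in PNST cells. Chromosome 19 had the lowest share, with 3.55%, 3.03% and 1.91%. The amount of desert differed as well, with 18.1 Mb on chromosome 12 and 1.52 Mb on chromosome 19.

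Counted per Mb of desert, the chromosomes were more alike. The X chromosome had the highest density in all 3 sources, with 5.87 ECC peaks per Mb, 25.8 in limb buds and 4.97 in PNST cells. Among the autosomes, the ECC density ran from 3.02 on chromosome 17 to 5.66 on chromosome 13. In limb buds it ran from 17.4 on chromosome 7 to 23.8 on chromosome 12. In PNST cells it ran from 1.97 on chromosome 19, with 3 peaks, to 4.35 on chromosome 4.

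**Figure D2:**
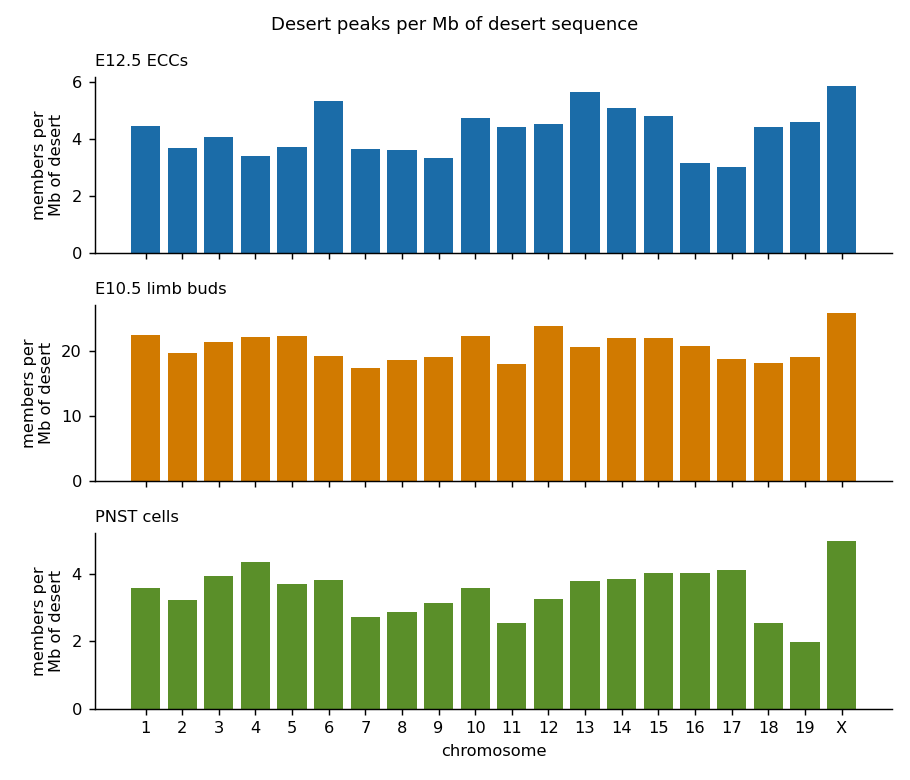
Desert peaks per Mb of desert sequence (y axis, a separate scale for each source) on each chromosome except Y (x axis). The X chromosome has the tallest bar in each panel, at 5.87, 25.8 and 4.97 peaks per Mb.

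The desert sequence formed 281 stretches, each between a pair of neighbouring genes. ECC peaks were found in 206 stretches, limb bud peaks in 262 and PNST peaks in 201. All 3 sources had desert peaks in 172 stretches, and 15 stretches had none. Among the 76 stretches with at least 1 Mb of desert, the median density was 3.85 ECC peaks, 20.9 forelimb bud peaks and 3.42 PNST peaks per Mb.

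Over these 76 stretches the ECC and limb bud densities had a Pearson r of 0.30 and a Spearman rho of 0.34. For limb buds and PNST cells r was 0.19 and rho 0.23, and for ECCs and PNST cells r was 0.019 and rho 0.075. The points share their sequence and its base composition and repeats, so these values are a description. The densities of ECCs and PNST cells had the weakest relation of the 3 pairs. Over all 281 stretches, the median count was 2 desert peaks in ECCs and 2 in PNST cells, against 10 in limb buds. The part of such low counts in the order of the pairs was not tested.

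The ECC list had its largest number of desert peaks, 24, between the surfactant protein gene Sftpd and 1700001F09Rik on chromosome 14 (chr14:41998414-44020917). Limb buds had 34 desert peaks there, and PNST cells had 0 of 793, which allows a share of up to 0.378%. This was 24.7 ECC peaks per Mb of desert, against a median of 3.85 in the larger stretches. Of the 24 ECC peaks, 18 had no 32-base word found once on the placed chromosomes, as had 30 of the 34 limb bud peaks. Among all desert peaks, 65.7% in ECCs and 78.3% in limb buds had no such word. The median 32-base word of the peaks in this stretch occurred 9 times on the placed chromosomes in ECCs and 11 times in limb buds, far fewer than in most desert peaks. Tags ran from 5 to 25 in ECCs (median 7) and from 8 to 59 in limb buds (median 16, against 9 in all limb bud desert peaks). A limb bud peak overlapped 4 of the 24 from ECCs, beside 32.4% of all placed ECC peaks. The stretch holds the predicted gene Gm7995, and 8 of the ECC and 12 of the limb bud peaks touched a gene of GENCODE vM1. Among all desert peaks, 43 of 935 in ECCs and 149 of 4639 in limb buds did so.

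The next ECC stretches were Snx16-Ralyl with 19 desert peaks, Gm13476-Acvr2a with 16, Slitrk5-Mir17 with 15 and Celf4-Pik3c3 with 14. Acvr2a is an activin receptor, and Slitrk5 is a transmembrane protein of the synapse. In the same stretches, limb buds had 56, 45, 59 and 60 desert peaks and PNST cells had 10, 5, 6 and 9. In all of them limb buds had the most desert peaks.

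Limb buds had most desert peaks in Dsel-Cntnap5a (75), Hace1-Grik2 (71), Pcdh7-G6pd2 (71), Lrrc4c-B230118H07Rik (68) and Odz3-Aga (66). Cntnap5a belongs to the contactin-associated adhesion proteins, Pcdh7 is a protocadherin and Grik2 is a glutamate receptor. ECCs had 14, 14, 13, 12 and 13 desert peaks there, and PNST cells had 6, 7, 14, 11 and 13. These stretches are long, with 2.39 to 3.84 Mb of desert, and their limb bud densities lay between 17.2 and 29.7 peaks per Mb.

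PNST cells had most desert peaks in Olfm4-Pcdh17 (17), Ptprd-Tyrp1 (15), Epha7-Map3k7 (14), Pcdh7-G6pd2 (14) and Odz3-Aga (13). Epha7 is an ephrin receptor of axon guidance, and Map3k7 encodes the kinase TAK1. ECCs had 9, 6, 11, 13 and 13 desert peaks in these stretches. In Ptprd-Tyrp1 the PNST density was 4.63 peaks per Mb, against 1.85 in ECCs and 19.4 in limb buds.

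**Figure D3:**
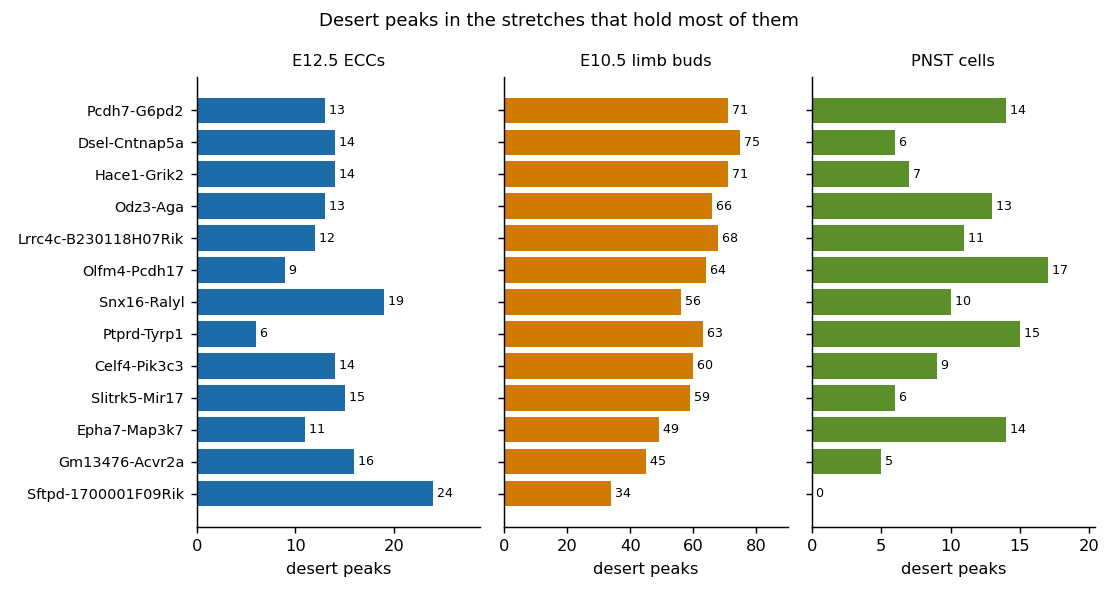
Number of desert peaks (x axis, a separate scale for each source) in the stretches that ranked among the first 5 in at least 1 source (y axis, named by the genes at their ends). Sftpd-1700001F09Rik has 24 ECC and 34 forelimb bud peaks and no PNST peak, and Olfm4-Pcdh17 has the most PNST peaks, 17.

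Genes at the ends of the stretches were grouped by family. Adhesion and guidance families (cadherins, protocadherins, contactins, ephrins and their receptors, Slit and Robo, Slitrk, teneurins and others) were at an end of 62 stretches through 54 genes. Families were taken by the start of the gene symbol, and Adam was one such start. Adamts5, Adamts16 and Adam6a are therefore included, the last with 9 ECC, 54 limb bud and 5 PNST peaks at the immunoglobulin heavy chain segments. The 62 stretches held 39.3% of the desert sequence. They held 325 ECC peaks (34.8% of the desert peaks), 1806 limb bud peaks (38.9%) and 317 PNST peaks (40.0%). The shares of limb bud and PNST peaks were close to the share of sequence, and that of ECC peaks was below it. Single stretches varied, from 13 ECC, 43 limb bud and 4 PNST peaks in Cdh8-Cdh11 to 4, 38 and 10 in Gm5088-Pcdh9 and 9, 57 and 10 in Cdh6-Cdh9.

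Transcription factors of the limb and valve lists were at an end of 20 stretches through 19 genes, with 3.48% of the desert sequence. They held 36 desert peaks of ECCs (3.85%), 158 of limb buds (3.41%) and 29 of PNST cells (3.66%), close to the share of sequence. Nr2f1, an orphan nuclear receptor, had 13 ECC, 34 limb bud and 8 PNST peaks in the stretch to Arrdc3. Mef2c, a factor of heart development, had 3, 11 and 3, and Zfhx4 had 3, 18 and 3. No desert peak of any source was found in the stretches of Sox11, Sall3, Zfhx3 and Myc, which had at most 0.126 Mb of desert each.

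Secreted signals of the list bordered 3 stretches, with 0.274% of the desert sequence, and held 1 ECC, 25 limb bud and 4 PNST peaks. Most of these were in Nrg3-Sh2d4b, beside the neuregulin Nrg3, with 17 limb bud and 3 PNST peaks in 0.343 Mb and no ECC peak. The limb bud share, 0.539%, and the PNST share, 0.504%, were above the share of sequence, on few peaks.

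Between Adam6a and Zfp386 on chromosome 12, where the immunoglobulin heavy chain segments lie, limb buds had 54 desert peaks. This was 36.0 per Mb, the highest limb bud density among the larger stretches. ECCs had 9 desert peaks there and PNST cells 5. A peak of another source overlapped 7 of the 9 from ECCs, beside 33.3% of all placed ECC peaks. Of the 9, 8 touched a gene of GENCODE vM1, beside 43 of all 935 ECC desert peaks. The stretch was chosen after its values were seen, so these counts are a description. The median 32-base word occurred 8.5 times on the placed chromosomes in ECC peaks of this stretch and 7.5 times in limb bud peaks.

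A typical desert peak resembled a peak elsewhere in size. Median tags were 6 in ECC desert peaks and 6 in the other ECC peaks, against 9 and 10 for limb buds and 8 and 8 for PNST cells. Median lengths were 175 and 176 bp in ECCs, 143 and 143 bp in forelimb buds, and 148 and 149 bp in PNST cells. Median fold enrichment was 27.2 and 27.4 in ECCs, against 14.5 and 14.4 for limb buds and 15.2 and 15.2 for PNST cells. The lowest tag count in each list was 5 in ECCs, 8 in forelimb buds and 7 in PNST cells, so the medians lay near the lowest value that the peak caller passed.

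Strong peaks were less frequent in deserts. A p-value of 1e-10 or smaller was given to 8.24% of ECC desert peaks and 10.1% of other ECC peaks, a difference of -1.86 points with an interval that spans 0 (-3.57 to 0.164). The shares were 6.98% and 8.93% in limb buds, a difference of -1.95 points (-2.70 to -1.14). They were 4.92% and 7.56% in PNST cells, a difference of -2.64 points (-4.11 to -0.803). Peaks of 20 or more tags made up 2.25% of ECC desert peaks against 4.15% of other peaks, 5.54% against 7.73% in limb buds, and 3.03% against 5.82% in PNST cells. Desert peaks of 500 bp or more numbered 5 in ECCs (0.535%, against 1.58% of other peaks), 16 in forelimb buds (0.345% against 0.797%) and 3 in PNST cells (0.378% against 1.21%). The differences were -1.05 points (-1.46 to -0.303), -0.452 points (-0.612 to -0.223) and -0.828 points (-1.22 to -0.0619).

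The desert peaks with the most tags in each source lay together within chromosome 2, between Lrrc4c, a synaptic adhesion protein, and B230118H07Rik. The longest, chr2:98506299-98507513 in PNST cells, had 1792 tags in ECCs, 1810 in forelimb buds and 1886 in PNST cells. The second, at chr2:98502341-98503161, had 1167, 1252 and 1305 tags. Another had 424, 505 and 496 tags, and the last had 316, 360 and 465. All of these values were 316 or more, while the other desert peaks shared by all sources had at most 128.

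Together these 4 peaks held 3699 of the 10307 tags in ECC desert peaks (35.9%), 3927 of 55748 in limb buds (7.04%) and 4152 of 11440 in PNST cells (36.3%). Their tag counts were thus similar in libraries of unlike depth. Their fold enrichment was low, between 4.76 and 5.31. The sequence repeats at a shift of 234 bp, at which 50.3% of its bases match, against a median of 28.7% at shifts of 20 to 400 bp. The unit printed above is 1 period of this repeat. In each source, 3 of the 4 peaks touched the predicted genes Gm10800 or Gm10801.

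Overlap with the other sources was counted when another source's peak covered at least 5% of a desert peak. Of the ECC desert peaks, 278 (29.7%) were overlapped by a limb bud or PNST peak, beside 33.3% of all placed ECC peaks. Of the limb bud desert peaks, 312 (6.73%) were overlapped by an ECC or PNST peak, beside 8.62% of all placed limb bud peaks. Of the PNST desert peaks, 89 (11.2%) were overlapped by an ECC or limb bud peak, beside 16.9% of all placed PNST peaks. In each source the share over the full lists was lower in deserts than in the background.

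Against the other placed peaks of the same list, the difference was -3.88 points in ECCs (-6.87 to -0.726), -2.09 points in limb buds (-2.83 to -1.29) and -6.36 points in PNST cells (-8.59 to -3.81). None of these intervals reached 0. For ECCs, limb bud peaks overlapped 267 desert peaks (28.6%, background 32.4%) and PNST peaks overlapped 49 (5.24%, background 5.79%). For the overlap of ECC desert peaks by PNST peaks, the difference from the other placed peaks spanned 0 (-0.604 points, -1.95 to 1.08). For PNST cells, limb bud peaks overlapped 77 (9.71%, background 15.6%) and ECC peaks overlapped 51 (6.43%, background 8.95%). For limb buds, ECC peaks overlapped 275 (5.93%, background 7.41%) and PNST peaks overlapped 77 (1.66%, background 2.34%).

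Restricting both sides to peaks with at least 1 unique 32-base word left a difference of -5.62 points in ECCs (-10.6 to -0.200) and of -3.01 points in limb buds (-4.72 to -1.01). In PNST cells it was -5.53 points, and its interval then spanned 0 (-10.7 to 0.485). Without the chromosome 2 peaks, telomere repeats and mitochondrial matches, the differences were -4.53, -2.22 and -6.67 points, and no interval reached 0. With peaks of a p-value of 1e-10 or smaller in every list, the overlapped share rose to 55.8% of ECC, 14.5% of limb bud and 71.8% of PNST desert peaks. The other placed peaks then had 58.5%, 16.4% and 75.3%, and the intervals of the differences all spanned 0 (-14.2 to 8.33, -5.53 to 2.49 and -19.4 to 8.87 points).

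Peaks of both other sources overlapped 38 ECC desert peaks (4.06%, background 4.90%), 40 limb bud desert peaks (0.862%, background 1.14%) and 39 PNST desert peaks (4.92%, background 7.67%). The difference from the other placed peaks spanned 0 in ECCs (-0.916 points, -2.09 to 0.606) and in limb buds (-0.302 points, -0.554 to 0.0224). In PNST cells it was -3.09 points (-4.56 to -1.25). Median tags in ECCs were 6 in desert peaks overlapped by no other source, 6 with 1 other source and 16 with both. In limb buds the medians were 9, 11 and 27.5, and in PNST cells 8, 8 and 18. At least 1 unique 32-base word, found once on the placed chromosomes, was held by 34.2%, 26.7% and 84.2% of the ECC peaks in these classes. Copies in the mitochondrial genome or in unplaced sequence were not counted. For limb buds these shares were 21.2%, 22.4% and 70.0%, and for PNST cells 25.99%, 46.0% and 74.4%.

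**Figure D4:**
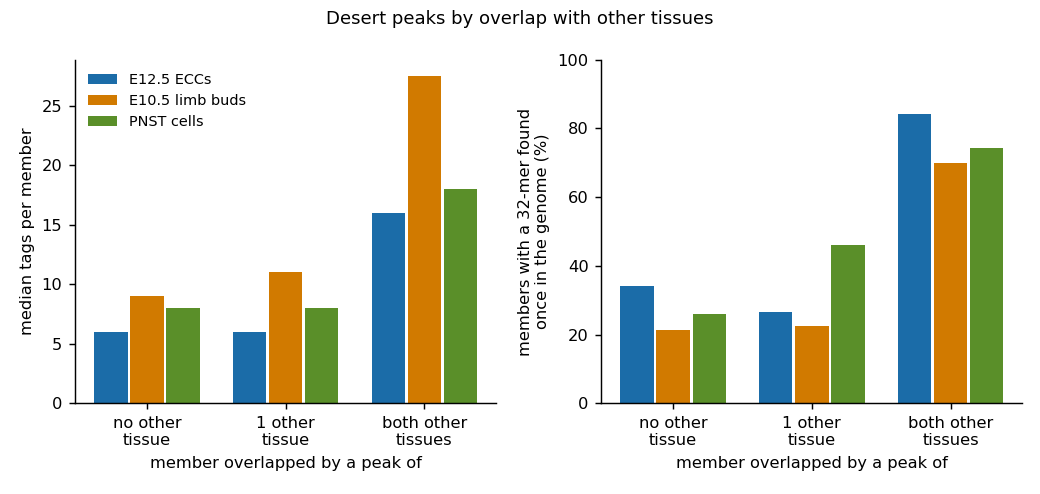
Median tags (left) and share of desert peaks with a 32-base word found once on the placed chromosomes (right, %) for desert peaks overlapped by a peak of no other, 1 other or both other sources (x axis). In ECCs, then limb buds, then PNST cells, both measures are highest for peaks overlapped by both, with 16, 27.5 and 18 tags and 84.2%, 70.0% and 74.4% of the peaks.

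The 39 PNST desert peaks found in all 3 sources were grouped by their sequence, joining peaks that share a word of 20 bases. This gave 13 regions with telomere repeats, 11 of a group named C-rich here after its C-rich runs, the 4 chromosome 2 peaks, 2 mitochondrial matches and 9 others. An E-box was present anywhere in the peak in 13 of the 39, beside 58.3% of all PNST desert peaks. Among the 13 were 2 with telomere repeats, 1 of the C-rich group and 6 of the 9 others.

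The 13 regions with telomere repeats, the sequence of chromosome ends, lay in 12 stretches on 7 chromosomes. In ECCs they had 5 to 74 tags with a median of 46, in forelimb buds 8 to 100 with a median of 46, and in PNST cells 7 to 52 with a median of 28. The ranges of the sources overlapped.

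A telomere repeat (at least 3 units in a row, on either strand) was present in 16 ECC desert peaks (1.71%), 16 limb bud desert peaks (0.345%) and 13 PNST desert peaks (1.64%). The shares of the other placed peaks were 1.58%, 0.367% and 2.09%. The differences were 0.127 points (-0.581 to 1.202), -0.0223 points (-0.168 to 0.199) and -0.448 points (-1.23 to 0.741), and each interval spans 0. Of 2180 windows of 150 bp in deserts, none had it, which compares with 1 of 23398 windows elsewhere. All 13 PNST peaks and 13 of the 16 in each of the other sources were overlapped by both other sources. No desert peak found in 1 source alone had a telomere repeat. Outside deserts, the repeat was in 27.3% of ECC, 26.9% of limb bud and 26.1% of PNST peaks overlapped by both other sources. The shares of such peaks in deserts were 34.2%, 32.5% and 33.3%. Of the other placed peaks overlapped by no other source, 0.0930%, 0.0178% and 0% had it.

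The 11 regions of the C-rich group were on 9 chromosomes and had 7 to 20 tags in ECCs, 10 to 29 in forelimb buds and 7 to 20 in PNST cells. The word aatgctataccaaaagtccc was in 7 of them, and it occurs 23688 times on the placed chromosomes. It was in 21 ECC desert peaks (2.25%), 22 limb bud desert peaks (0.474%) and 15 PNST desert peaks (1.89%), against 1.42%, 0.265% and 0.820% of the other placed peaks. Since the word was chosen on these peaks, the shares are a description. In each source, 7 of the peaks with this word were overlapped by both others.

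Among the 9 other regions, LOC100504525-Cdh20 (chr1:104524768-104524903) had the most tags summed over the sources, with 27 in ECCs, 46 in forelimb buds and 24 in PNST cells. Cdh20 is a cadherin. Edem1-Grm7 held a pair of neighbouring regions on chromosome 6, with 29 and 9 tags in limb buds, against 22 and 7 for PNST cells. Both lay under 1 ECC peak with 36 tags, which is more than any other of these regions had in ECCs. A pair of regions in Adam6a-Zfp386 had 8, 15 and 7 tags and 6, 15 and 7 tags. All 9 of these regions were below the chromosome 2 peaks in tags.

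**Figure D5:**
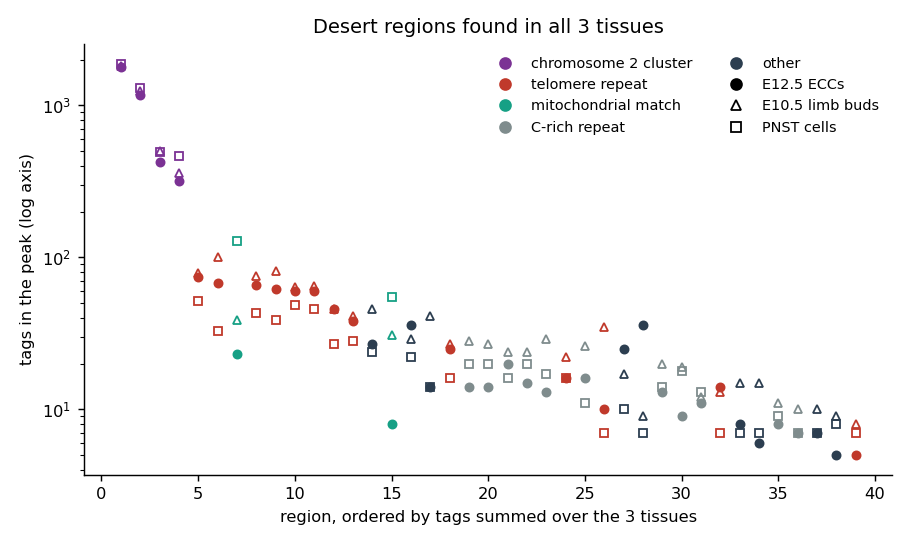
Tags (y axis, log scale), by source, of the 39 desert regions found in all 3 sources, ordered along the x axis by their summed tags and coloured by sequence group. The 4 chromosome 2 peaks have 316 to 1886 tags, telomere repeats 5 to 100, and mitochondrial matches are highest in PNST cells.

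Desert peaks that share 32-base words with the mitochondrial genome were few, 2 of 935 in ECCs, 3 of 4639 in forelimb buds and 6 of 793 in PNST cells. Among the other placed peaks there were 5 of 9718, 7 of 43025 and 11 of 6466. The share was thus higher in deserts in each source, on few peaks. The chromosome 12 region between 1700019M22Rik and Galc had 23 tags in ECCs, 39 and 15 tags in limb buds, where it was listed as a pair of peaks, and 128 tags in PNST cells. The chromosome 6 region between Nxph1 and AA545190 had 8, 31 and 55 tags. In both regions the PNST count was the highest. These counts were not scaled for depth. After duplicate tags were removed, the ECC library held 3149934 tags, against 14893391 for limb buds and 11823220 for PNST cells. The order of ECCs and limb buds can therefore not be read from these counts. The other 4 PNST peaks, 3 in Ptprd-Tyrp1 with 12 or 13 tags and 1 in Pcdh7-G6pd2 with 22 tags, were overlapped by no peak of another source.

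Repeated sequence was frequent in desert peaks. No 32-base word that occurs once on the placed chromosomes was found in 614 desert peaks of ECCs (65.7%), 3633 of limb buds (78.3%) and 558 of PNST cells (70.4%). The shares of the other placed peaks were 58.8%, 72.9% and 65.3%, and the differences were 6.88 points (3.63 to 10.0), 5.40 points (4.12 to 6.63) and 5.04 points (1.57 to 8.33). In windows of 150 bp, taken every 100000 bp, the shares were 8.53% in deserts and 6.49% elsewhere. Both in deserts and outside them, the share was thus higher in peaks than in windows.

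The median 32-base word of a desert peak occurred 382 times in ECCs, 647.5 times in forelimb buds and 481.5 times in PNST cells. The median G and C content around the summit was 53.5% in ECCs, 49.5% in forelimb buds and 40.6% in PNST cells, while the desert windows had a median of 36.7%. The other placed peaks had 53.5%, 50.5% and 42.6%. PNST desert peaks thus had the lowest G and C content of the 3.

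Some single repeated words differed between the sources. The 32-base word carried by the most desert peaks in ECCs (39), in limb buds (309) and the second in PNST cells (21) are printed here, in this order. The second was taken in PNST cells, after its values were seen, because the sources do not share it equally.
ECC word: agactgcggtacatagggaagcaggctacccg
Limb bud word: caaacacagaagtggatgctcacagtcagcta
PNST word: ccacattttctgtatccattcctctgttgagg

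The ECC word was in 4.17% of ECC desert peaks, 3.10% of limb bud desert peaks and no PNST desert peak. The limb bud word was in 1.82%, 6.66% and 1.39%, and the PNST word in no ECC peak, 0.0431% of forelimb bud peaks and 2.65% of PNST peaks. In the other placed peaks of the source where it was chosen, each word was less frequent, with 2.47%, 4.12% and 1.42%. The words were chosen on these desert peaks, so these shares are a description. The first word in PNST cells, also in 21 of their desert peaks (2.65%), was in 0.749% of ECC and 3.36% of limb bud desert peaks. The printed words occur 5294, 30175 and 28090 times on the placed chromosomes.

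An E-box (CANNTG, which reads the same on both strands) within 50 bp of the summit was found in 373 ECC desert peaks (39.9%, 36.8 to 43.1%), beside 38.5% of all placed ECC peaks. In limb buds it was found in 1894 (40.8%, 39.4 to 42.2%), beside 39.9%, and in PNST cells in 346 (43.6%, 40.2 to 47.1%), beside 40.7%. Of all windows of the same length on the placed chromosomes, 41.0% hold an E-box, and of those in deserts 39.0% do. The interval of the ECC share included both window values, and those of limb buds and PNST cells lay above the desert windows and included the genome value. Against the other placed peaks, the differences of 1.48, 0.993 and 3.27 points all had intervals that span 0. Among desert peaks with a p-value of 1e-10 or smaller the E-box share was 23.4% in ECCs (15.3 to 33.95%), 35.2% for forelimb buds (30.2 to 40.5%) and 23.1% for PNST cells (12.6 to 38.3%), so the ECC and PNST intervals lay below the desert windows. The other placed peaks at this limit had 23.5%, 33.6% and 20.04%, and the differences spanned 0.

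Forms of the E-box differed between the sources. CAGATG or CATCTG was in 5.78% of ECC desert peaks, 9.53% of limb bud desert peaks and 11.6% of PNST desert peaks, against 6.98% of desert windows. CATATG was in 4.71%, 6.98% and 3.53%, against 4.03% of desert windows. CAGCTG was in 5.56%, 3.71% and 0.757%, against 2.38% of desert windows. CACGTG was in 0.856%, 0.862% and 0.378%, against 0.520%. The first form was thus most frequent in PNST cells and the third in ECCs. The other placed peaks had the same order, with 5.08%, 8.18% and 9.51% for the first form and 6.31%, 4.44% and 1.82% for the third. A match is a description of the letters in the window and not a bound site.

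Compared with the other placed peaks of the same list, CATATG was more frequent in desert peaks by 1.39 points in ECCs (0.153 to 2.98) and by 1.33 points in limb buds (0.596 to 2.13). In PNST cells the difference was 0.685 points and spanned 0 (-0.476 to 2.26). CAGCTG was less frequent in desert peaks in limb buds, with a difference of -0.732 points (-1.28 to -0.118), and in PNST cells, with -1.07 points (-1.61 to -0.135). In ECCs the difference was -0.746 points and spanned 0 (-2.14 to 0.977). For both forms these directions are those of the desert windows, since 3.20% and 3.67% of all genome windows held them. The form CAGATG or CATCTG went the other way. It was more frequent in limb bud desert peaks by 1.35 points (0.496 to 2.26), with differences that spanned 0 in ECCs (0.692 points, -0.706 to 2.43) and PNST cells (2.09 points, -0.0853 to 4.603), while 7.67% of all genome windows held it.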

How the data were processed

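Twist1 ChIP-seq peaks were analysed as deposited for 3 samples, 1 pooled sample for each source. The authors sequenced 50 bp single reads and ran MACS 1.4.2 for each sample, with a p-value limit of 1e-05. The file headers name no control, and the methods give FVB/N genomic DNA as one. Mapping was to mm9, and the submitters' processing notes name Bowtie. The deposited lists give a count of tags for each peak, with duplicate tags removed and no normalization for depth. The score in the deposited lists is -10 times the log10 of the MACS p-value, and the deposited fold enrichment is a ratio to the local background. Their remaining columns hold positions, lengths and the distances to the nearest gene on each side. Of 12729 distances of desert peaks, 77.0% were within 2 bp of an exon or coding boundary of GENCODE vM1 and 21.0% of a TSS, so they were taken as distances to the nearest listed gene and not to a TSS.

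The genome and GENCODE vM1 used here are of the same build as the lists. Repeated sequence was measured by counting 32-base words on both strands of the placed chromosomes. The mitochondrial genome and unplaced sequence were not part of this count, so a word found once can have copies there. Counts were made with Python 3.11.15, pandas 2.3.3, NumPy 2.4.6, SciPy 1.17.1 and pyfaidx 0.9.0.4. Shares have 95% Wilson intervals, and differences have Newcombe intervals. With 1 sample for each source no test over samples was run. The overlap, distance and word counting code was tested on simulated data. The regions and genes named were the 5 stretches with the most desert peaks in each source, the 3 peaks with the highest fold enrichment or most tags, the farthest peak, the 10 regions with the most tags found in all 3 sources, and genes of the family lists. The Adam6a and Sftpd details, the C-rich group and the 32-base words were chosen after their values were seen. The members, rules and lists were chosen with earlier results of these data known. Some of the genes, regions and sequences that these rules pick are not reported here. Alternatives changed 1 choice at a time. Peaks on unplaced sequence, reads and the control library were not analysed here.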

Additional observations from a re-analysis of the deposited data

Results flagged for a closer look

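Peaks on unplaced sequence were left out of the counts above. Of these, 113 of 312 in ECCs (36.2%, 31.1 to 41.7%), 511 of 1301 in limb buds (39.3%, 36.7 to 42.0%) and 122 of 279 in PNST cells (43.7%, 38.03 to 49.6%) had every listed gene distance above 500000 bp. They were singled out because they are signal outside the main measurement, above the 3 counts that a count of 0 allows. The order of unplaced sequence relative to genes was not checked.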

How the results depend on the processing

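No paired analysis was possible because each source has 1 sample. Of 54 alternative values for the shares, 16 stayed within the interval of the main value. Values below are in the order ECCs, limb buds and PNST cells. The share of placed peaks in deserts was 18.5%, 19.8% and 22.5% at 250000 bp, and 2.63%, 2.998% and 3.24% at 1000000 bp. At a p-value of 1e-10 it was 7.28%, 7.77% and 7.39%, so the higher share in PNST cells was lost among the strongest peaks, of which 39 PNST peaks were in deserts. It was 9.23% in limb buds and 9.56% in PNST cells at a fold enrichment of at least 20, and 10.505% and 12.2% with distances to a protein-coding TSS. With only peaks that hold a unique 32-base word, an alternative chosen after seeing the data like the others on such words and on repeats, it was 7.42%, 7.95% and 9.49%. The share of desert peaks overlapped by another source was 20.6%, 4.66% and 9.21% with a reciprocal overlap of 50%, 47.1%, 13.6% and 19.7% within 1000 bp, and 55.8%, 14.5% and 71.8% at 1e-10 in every list. With only unique 32-base words it was 8.85% in limb buds and 22.1% in PNST cells. Without the chromosome 2 peaks, telomere repeats and mitochondrial matches it was 9.09% in PNST cells. The share with an E-box was 56.9%, 57.5% and 58.3% over the whole peak, and 23.4%, 35.2% and 23.1% at 1e-10. At 1000000 bp it was 38.7% in limb buds and 48.5% in PNST cells, and with unique 32-base words 34.3% in ECCs and 37.4% in PNST cells. Wider windows, distances or stricter lists change a share by their construction, and other causes were not tested. Depth limits the lists, since the lowest tag counts are 5, 8 and 7, and a peak absent from a list may have been missed.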
